A study of Mus musculus with 4 samples.

Results

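The mitochondrial ribosomal protein genes were taken as every row of the 4 count tables whose symbol starts with Mrpl or Mrps followed by a number, leaving out pseudogenes. This gave 77 genes of 23238 symbols, 48 named for the large subunit (Mrpl) and 29 named for the small subunit (Mrps). All 77 passed the filter on low counts and were tested, among 11464 tested genes. RNA came from CD4+ T cells of C57BL/6j mice, in 2 libraries of the Pdk4 knockout genotype and 2 libraries of wild type. Cells of both genotypes were naive cells from spleen and lymph nodes, isolated with magnetic beads. Both were cultured in RPMI1640 medium with serum, and IL-2 and stimulation through CD3 and CD28 were applied for 48 hours. The labels do not say how the Pdk4 gene was inactivated, in which cells, at what age, or whether the libraries of a genotype came from separate mice. The p-values therefore rest on the variation among these 4 libraries alone, part or all of which may be technical.

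Mitochondria keep a small genome that encodes core subunits of the respiratory chain and ATP synthase, and the mitochondrial ribosome is the machine that translates those messages. All of its proteins are encoded in the nucleus, made in the cytosol and imported. The small subunit binds the mRNA and reads its codons, and the large subunit joins the amino acids and passes the new protein through an exit tunnel towards the inner membrane. Part of the proteins have counterparts in the bacterial ribosome and the rest are specific to mitochondria. Naive T cells enlarge their mitochondrial mass and translation when they are activated, and Pdk4 encodes a kinase that inhibits the pyruvate dehydrogenase complex, the entry of pyruvate into mitochondrial oxidation.

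The library kit counts 1 read per transcript 3' end, so that levels in CPM (a gene's counts relative to the library total, TMM-normalised) can be set side by side between genes without a correction for length. The libraries held 9739624 and 9104413 counts in the Pdk4 knockout, against 8837810 and 9575879 counts in wild type. Pdk4 itself had 0 and 2 counts in knockout libraries, against 1 and 0 counts in wild-type libraries, so it was not tested and cannot check the labels. All 8 CD4 T cell markers in the tables were present in every library, with summed levels of 2645 and 2657 CPM in the knockout, against 2813 and 2876 CPM in wild type. Of these Cd2 fell (644 and 624 CPM in the knockout, against 836 and 846 CPM in wild type) and Cd5 rose (322 and 350 CPM in the knockout, against 283 and 266 CPM in wild type), while Cd4 had 269 and 251 CPM in the knockout, against 251 and 254 CPM in wild type. Cd3d and Cd3g had both knockout libraries lower (adjusted p = 0.273 and 0.359), and 1 of the 8 was called when wild-type replicate 2 or either knockout library was left out. Of 17 tested B cell markers 14 fell (7 without wild-type replicate 2, and 9 if knockout replicate 2 is dropped), and their summed level was 177 and 190 CPM in knockout libraries, against 332 and 372 CPM in wild-type libraries. Pax5 was at 0 in all 4 libraries and Cd22 was at 0 in both knockout libraries. Of 12 tested markers of CD8 T and NK cells 2 fell, Gzma and Klrc1 (1 without wild-type replicate 2 or without knockout replicate 1), with summed levels of 438 and 398 CPM in the knockout, against 608 and 615 CPM in wild type (Gzmk was at 0 in all 4 libraries). None of 8 tested myeloid and erythroid markers passed the test (3 of 9 tested did when wild-type replicate 1 was left out), with sums of 65.9 and 194 CPM in the knockout, against 169 and 41.8 CPM in wild type. Over all tested genes 1.21% fell and 1.45% rose. Much of the difference in the CD8 T and NK cell sums lay in Gzma (76.1 and 51.2 CPM in the knockout, against 219 and 219 CPM in wild type). Of that list's 12 tested genes 6 overlapped between genotypes. Both knockout libraries were lower for 5 (against 21.9% of all tested genes) and higher for 1 (against 21.5%). Fewer cells of a type and less RNA per cell cannot be told apart in such bulk libraries, and the part of these markers in the values below was not tested.

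The promoters show what several of these genes share in sequence. RefSeq windows of 300 bases (GRCm38.p6; 250 bases before the transcript start and 50 after it) were found for 68 of the 77 genes, as 74 windows. They were searched on both strands for exact matches to GCATGCGC (the core of the site of NRF1, a regulator of nuclear genes for mitochondria), CCGGAAGT (the core of ETS-family sites, which include those of GABP), AAGATGGC (the core of YY1 sites) and CACGTG (the E-box, bound by MYC). Because GCATGCGC is close to its own reverse complement, neighbouring matches can overlap. The windows below are given because they hold both an NRF1 and an ETS core (Mrpl33, at positions 239 and 248, on the plus strand of chr5:31613701-31614000), an ETS and a YY1 core (Mrps27, at positions 202 and 265, on the plus strand of chr13:99344536-99344835), or 4 NRF1 cores with a YY1 core (Mrpl32, on the minus strand of chr13:14612988-14613287). Capitals mark the matches to these 3 cores, read 5' to 3' on the strand of the gene, and positions count from 1 at the 5' end.
Mrpl33: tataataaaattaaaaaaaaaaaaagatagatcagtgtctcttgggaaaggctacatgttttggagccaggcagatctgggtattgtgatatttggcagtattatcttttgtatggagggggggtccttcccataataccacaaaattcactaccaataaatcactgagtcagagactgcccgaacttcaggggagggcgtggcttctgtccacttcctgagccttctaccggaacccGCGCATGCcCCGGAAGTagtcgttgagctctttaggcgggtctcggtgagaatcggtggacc
Mrps27: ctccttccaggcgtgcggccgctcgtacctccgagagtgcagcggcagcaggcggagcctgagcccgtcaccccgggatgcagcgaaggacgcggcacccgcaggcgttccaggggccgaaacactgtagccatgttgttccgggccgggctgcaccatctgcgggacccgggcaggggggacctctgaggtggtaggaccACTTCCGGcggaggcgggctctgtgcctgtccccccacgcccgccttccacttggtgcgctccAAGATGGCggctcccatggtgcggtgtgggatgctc
Mrpl32: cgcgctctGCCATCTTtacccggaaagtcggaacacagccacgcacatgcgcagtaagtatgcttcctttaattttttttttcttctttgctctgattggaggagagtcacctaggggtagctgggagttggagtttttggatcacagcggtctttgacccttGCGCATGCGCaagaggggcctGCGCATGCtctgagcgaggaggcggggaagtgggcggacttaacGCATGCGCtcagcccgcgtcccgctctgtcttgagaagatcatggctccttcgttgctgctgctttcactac

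The YY1 core stood in 12 of the 74 windows (16.2%), against 4.71% of 11114 windows of tested genes and 2.75% of all 32851 windows. It was in 6 of 47 large subunit windows (12.8%) and 6 of 27 small subunit windows (22.2%). The ETS core stood in 12 windows (16.2%), against 8.47% of windows of tested genes. The NRF1 core was in 8 windows (10.8%), against 5.43% of windows of tested genes. These were 7 of 47 large subunit windows (14.9%) and 1 of 27 small subunit windows (3.7%), a difference that was not tested. The E-box was in 7 windows (9.46%), against 10% of windows of tested genes. Overlapping windows of Mrpl2 hold the same E-box and are counted apart in this number. Of the 68 genes with a window, Mrpl33 was the 1 with both the NRF1 and the ETS core. A match describes the letters of the window and does not show that a factor binds there. Mrpl13, Mrpl15, Mrpl19, Mrpl38, Mrpl4, Mrpl54, Mrps28, Mrps34 and Mrps35 had no window.

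All 77 mRNAs were present in every library, at 70 to 1918 counts per gene and library. Their mean levels ran from 8.45 CPM (Mrpl21) to 180 CPM (Mrpl34), with a median of 49.2 CPM, against a median of 23.9 CPM over all tested genes. The large subunit genes had a median of 49.7 CPM and the small subunit genes 48.2 CPM. The mRNA levels of the 77 genes were thus unequal, with 13 genes above 100 CPM and 4 below 20 CPM. The 4 include Mrps36, which is not a ribosomal protein. Protein levels were not measured here. Across the 77 genes the log2 level in the knockout followed that in wild type, with a Pearson correlation of 0.983 between genotype means. The same measure was 0.976 between the 2 knockout libraries and 0.975 between the 2 wild-type libraries. Over all tested genes the corresponding values were 0.981, 0.974 and 0.976, so they are not particular to this family. Genotype means average 2 libraries and carry less noise than single libraries. Genes are not independent replicates, and these values only describe how similar the log2 levels were.

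**Figure D1:**
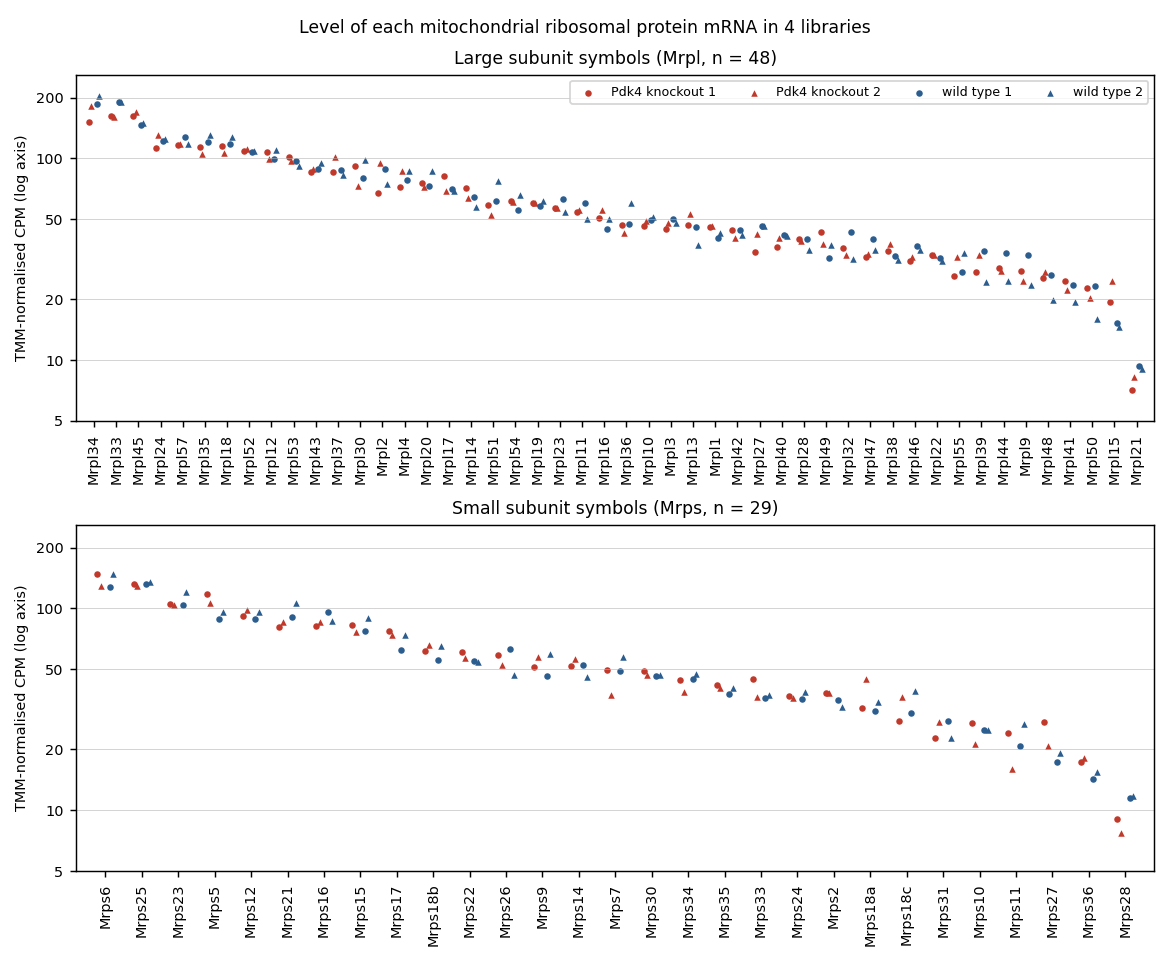
Level of each mitochondrial ribosomal protein mRNA in each library, in TMM-normalised CPM on a log axis, with large subunit genes above and small subunit genes below, ordered by mean level. Red symbols are the 2 Pdk4 knockout libraries and blue symbols the 2 wild-type libraries. The levels span 8.45 CPM (Mrpl21) to 180 CPM (Mrpl34), and for most genes the 4 symbols lie close together.

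The comparison of the series, Pdk4 knockout with wild type, asked whether the loss of Pdk4 goes with other gene expression in these cells. No mitochondrial ribosomal protein gene passed edgeR's quasi-likelihood test. An adjusted p under 0.05 was found for 0 of 48 large subunit and 0 of 29 small subunit genes. Among all 11464 tested genes 305 passed (2.66%, with 1.45% that rose and 1.21% that fell). At that share 77 genes would hold few or no calls. At an unadjusted p under 0.05 there were 6 of 77, 4 in the large and 2 in the small subunit, against 13.5% of all tested genes. DESeq2 and limma-voom also called 0 of the 77, with 4 and 6 at an unadjusted p under 0.05. The lowest adjusted p was 0.182 (Mrpl33), and under the 13 alternative settings no gene of the 77 was called, the lowest adjusted p being 0.112.

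Over the 77 genes the median log2 fold change was -0.01, and the median size of a change regardless of sign was 0.11, against 0.18 over all tested genes. The 95% interval of the fold change lay within 1.5-fold in either direction for 66 of 77 genes (85.7%), 42 of the large and 24 of the small subunit, against 47.4% of all tested genes, many of which had lower counts. For 75 of the 77 genes the interval lay within 2-fold. The 11 genes whose interval reached beyond 1.5-fold were Mrpl15, Mrpl51, Mrpl27, Mrpl48, Mrpl21, Mrpl50, Mrps7, Mrps27, Mrps28, Mrps11 and Mrps36. These intervals, and not the missing calls, give the range of change that 2 libraries per genotype allow for each gene. Their width also rests on a spread shared with other tested genes. The standard deviation over the 77 genes of the log2 difference between genotype means was 0.17, and that of the difference between single libraries of 1 genotype was 0.20 in the knockout and 0.22 in wild type. A difference of means averages 2 libraries on each side, so it has less counting noise than a difference of single libraries.

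**Figure D2:**
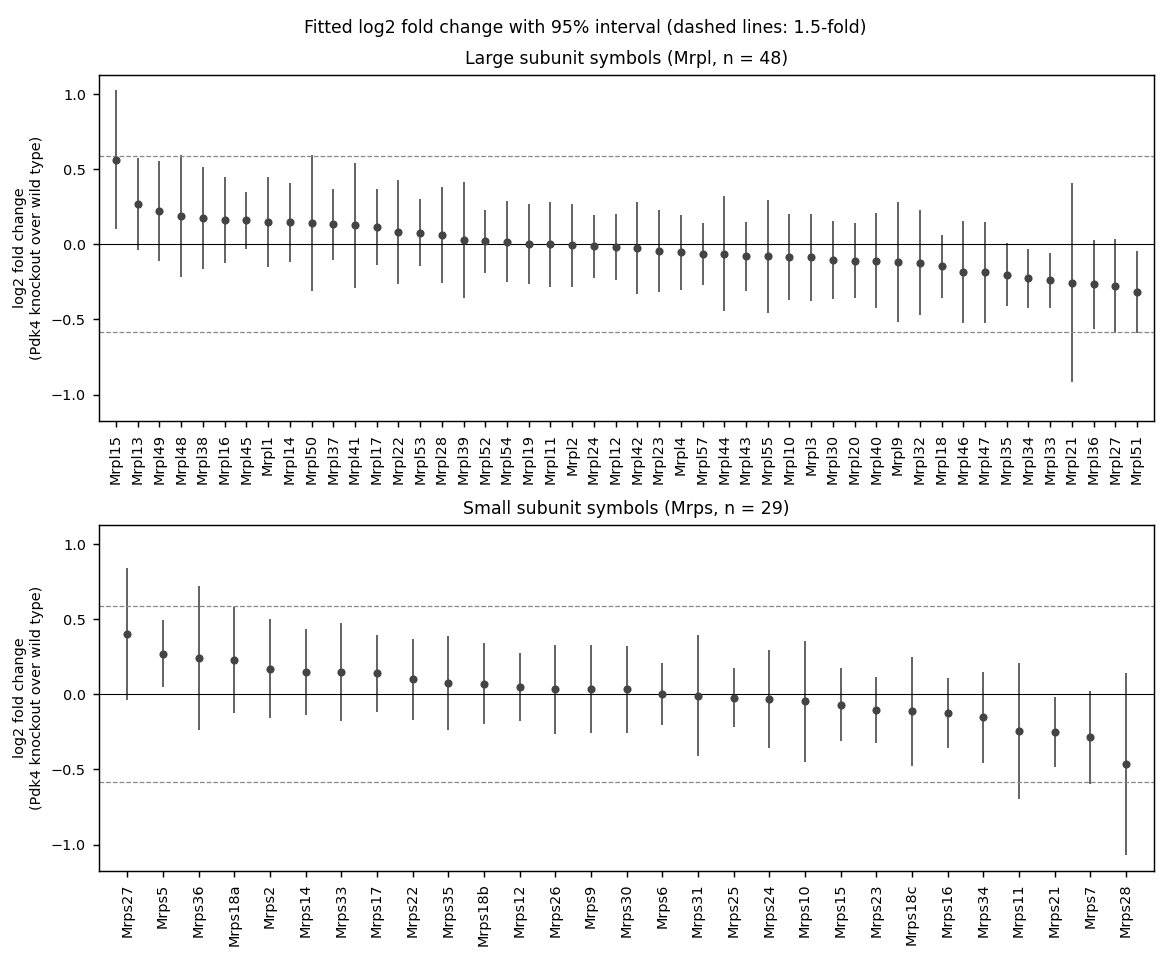
Fitted log2 fold change (Pdk4 knockout over wild type) of each gene as a point with its 95% interval as a line, in order of size, for the large subunit above and the small subunit below. Dashed lines mark 1.5-fold either way. For 66 of the 77 genes the whole interval lies between the dashed lines, and the points run from -0.46 (Mrps28) to 0.56 (Mrpl15).

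In the large subunit, 20 genes had a positive and 28 a negative log2 fold change, with a median of -0.02, against a median of 0.00041 over all tested genes. Both knockout libraries lay below both wild-type libraries for 14 of the 48 genes (29.2%), and such separation downwards was seen in 21.9% of all tested genes. Both knockout libraries lay above both wild-type libraries for 9 genes (18.8%), against 21.5% of all tested genes. The remaining 25 genes overlapped between genotypes.

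Mrpl33, Mrpl34, Mrpl35 and Mrpl36 are small basic proteins with bacterial counterparts, described together here after their values were seen. Mrpl33 had 161 and 161 CPM in knockout libraries, against 190 and 190 CPM in wild-type libraries. The genotypes were separate, and the log2 fold change was -0.24 with a standard error of 0.0889 (adjusted p = 0.182). In RefSeq the gene lies at chr5:31613951-31622644. Mrpl34, the most abundant of all 77 mRNAs, had 151 and 181 CPM in the knockout, against 187 and 203 CPM in wild type, without overlap. Its log2 fold change was -0.23 ± 0.0951 (SE; adjusted p = 0.263), and it ranged from -0.36 when knockout replicate 2 was left out to -0.10 when knockout replicate 1 was (adjusted p 0.118 to 0.839 over the alternatives). Mrpl35 had 114 and 105 CPM in the knockout, against 121 and 131 CPM in wild type, again without overlap (log2 fold change -0.20, adjusted p = 0.391). Mrpl36 had 46.5 and 42.8 CPM in the knockout, against 47.5 and 59.9 CPM in wild type (log2 fold change -0.27, adjusted p = 0.444). Its value was -0.09 when wild-type replicate 2 was left out and -0.42 when wild-type replicate 1 was.

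Mrpl15, whose bacterial counterpart is an RNA-binding protein of the large subunit, had the largest positive value of the family. It had 19.4 and 24.7 CPM in knockout libraries, against 15.2 and 14.6 CPM in wild-type libraries. The groups did not overlap, but the gene was among the least abundant, and the log2 fold change of 0.56 had a standard error of 0.226 (adjusted p = 0.234; 95% interval 1.07-fold to 2.04-fold). Mrpl51, a protein specific to mitochondria, had 58.9 and 52.6 CPM in the knockout, against 61.8 and 77.1 CPM in wild type. Its log2 fold change was -0.32 ± 0.135 (SE; adjusted p = 0.273), and the width of the gap between genotypes came mostly from wild-type replicate 2. Leaving out wild-type replicate 2 gave -0.15 and leaving out wild-type replicate 1 gave -0.47, and the adjusted p ranged from 0.117 to 0.84 over the alternatives.

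Along the exit tunnel (Mrpl17, Mrpl22, Mrpl23, Mrpl24, Mrpl45 and Mrpl47) 3 genes had positive and 3 negative values, with a median of 0.03. Mrpl45, which in human mitochondria holds the ribosome at the inner membrane, had 161 and 169 CPM in the knockout, against 147 and 149 CPM in wild type. These groups did not overlap, and the log2 fold change was 0.16 ± 0.092 (SE; adjusted p = 0.475; 95% interval 0.981-fold to 1.27-fold). Mrpl24, which lines the tunnel exit, had 113 and 131 CPM in the knockout, against 122 and 124 CPM in wild type, and the groups overlapped. Reads of Mrpl24 are uncertain, since an exon of Rrnad1 lies on the opposite strand over its 3' end.

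The stalk recruits translation factors. Its genes Mrpl10, Mrpl11 and Mrpl12 summed to 208 and 204 CPM in the knockout, against 209 and 211 CPM in wild type. Mrpl12, the stalk protein that also binds the mitochondrial RNA polymerase in human cells, had 107 and 99.7 CPM in the knockout, against 99.1 and 110 CPM in wild type, with a log2 fold change of -0.02 (adjusted p = 0.972). Around the peptidyl transferase centre, where amino acids are joined, Mrpl2, Mrpl3, Mrpl16 and Mrpl27 summed to 197 and 240 CPM in the knockout, against 229 and 219 CPM in wild type. The central protuberance, which faces the small subunit, is represented by Mrpl18, Mrpl38, Mrpl40, Mrpl46, Mrpl48 and Mrpl55. It summed to 269 and 276 CPM in the knockout, against 283 and 289 CPM in wild type, a ratio of mean sums of 0.953. None of the genes in these regions was called.

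At the ends of the range of levels, Mrpl57 had 117 and 118 CPM in the knockout, against 127 and 118 CPM in wild type, and its groups nearly coincided (log2 fold change -0.06, adjusted p = 0.868). Mrpl21, the least abundant member, had 7.15 and 8.26 CPM in the knockout, against 9.32 and 9.08 CPM in wild type. Its value of -0.26 had a standard error of 0.324 (adjusted p = 0.815; -0.155 with knockout replicate 1 left out), so that a gap between the libraries of this size was well within the error at its 70 to 86 counts per library.

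In the small subunit, 16 genes had a positive and 13 a negative log2 fold change, with a median of 0.03. Both knockout libraries lay above both wild-type libraries for 6 of the 29 genes (20.7%, against 21.5% of all tested genes) and below them for 4 (13.8%, against 21.9%). The other 19 overlapped.

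Several small subunit proteins sit along the path of the mRNA (Mrps5, Mrps7, Mrps11, Mrps12 and Mrps24), and of these 2 had positive and 3 negative values. Mrps5, at chr2:127587426-127603986, had the smallest p of the subunit, with 117 and 106 CPM in knockout libraries, against 88.6 and 96.2 CPM in wild-type libraries. The knockout libraries were both higher, and the log2 fold change was 0.27 ± 0.109 (SE; adjusted p = 0.235; 95% interval 1.04-fold to 1.41-fold). Mrps7, near the exit of the path, had 49.6 and 37.4 CPM in the knockout, against 48.9 and 57.1 CPM in wild type. Its groups overlapped (log2 fold change -0.28, adjusted p = 0.421; -0.10 with knockout replicate 2 left out and -0.50 with knockout replicate 1 left out), and an exon of Mif4gd lies on the opposite strand at its 3' end, so its counts are uncertain. Mrps12, the protein of the decoding centre, had 92.0 and 98.5 CPM in the knockout, against 88.9 and 95.5 CPM in wild type, with overlap (log2 fold change 0.05, adjusted p = 0.918).

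Mrps21, with a bacterial counterpart in the same subunit, had 80.6 and 85.2 CPM in the knockout, against 90.8 and 106 CPM in wild type. The knockout libraries were both lower, and the log2 fold change was -0.25 ± 0.115 (SE; adjusted p = 0.322), or -0.13 with wild-type replicate 2 left out and -0.36 with wild-type replicate 1 left out (adjusted p 0.193 to 0.833 over the alternatives). Mrps27, a mitochondria-specific RNA-binding protein with pentatricopeptide repeats, had 27.5 and 20.8 CPM in the knockout, against 17.3 and 19.2 CPM in wild type. The groups did not overlap, but the 2 knockout libraries differed from each other by more than the lower of them differed from wild type (log2 fold change 0.40, adjusted p = 0.421; 0.185 when knockout replicate 1 was left out). Mrps28 had the most negative value of the family, with 9.09 and 7.72 CPM in the knockout, against 11.5 and 11.7 CPM in wild type. Its log2 fold change of -0.46 had a standard error of 0.298 (adjusted p = 0.540; 95% interval 0.476-fold to 1.11-fold).

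Mrps6, Mrps25 and Mrps23 were the most abundant small subunit mRNAs, followed by Mrps5 and Mrps12. Mrps6 had 148 and 128 CPM in the knockout, against 128 and 148 CPM in wild type, and its 95% interval ran from 0.867-fold to 1.16-fold. Mrps25 had 132 and 130 CPM in the knockout, against 131 and 134 CPM in wild type, a log2 fold change of -0.02 (adjusted p = 0.964), with the reservation that an exon of Nr2c2 overlaps its 3' end on the opposite strand. Mrps23 had 105 and 104 CPM in the knockout, against 103 and 121 CPM in wild type (log2 fold change -0.10, adjusted p = 0.751).

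The letter in the symbol does not always give the subunit. The paralogs named Mrps18 occupy different places: Mrps18a lies in the large subunit, Mrps18c holds the position of the bacterial protein in the small subunit and Mrps18b is a further small subunit protein. Mrps18a had 32.2 and 44.6 CPM in the knockout, against 31.1 and 34.2 CPM in wild type, with overlap and the widest knockout pair of the 3 (log2 fold change 0.23, adjusted p = 0.627). Its value was -0.02 when knockout replicate 2 was left out and 0.45 when knockout replicate 1 was. Mrps18b had 61.3 and 65.6 CPM in the knockout, against 55.6 and 65.0 CPM in wild type (log2 fold change 0.07, adjusted p = 0.888). Mrps18c had 27.8 and 36.3 CPM in the knockout, against 30.5 and 38.8 CPM in wild type (log2 fold change -0.11, adjusted p = 0.864), and its value ran from -0.32 to 0.07 as single libraries were left out. Mrps18b was thus the most abundant of the paralogs in all 4 libraries.

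Mrps30, also part of the large subunit in structures, had 48.8 and 46.5 CPM in the knockout, against 46.5 and 46.8 CPM in wild type (log2 fold change 0.03, adjusted p = 0.962). Mrps36 is not a ribosomal protein but a component of the 2-oxoglutarate dehydrogenase complex. It had 17.3 and 18.1 CPM in the knockout, against 14.3 and 15.5 CPM in wild type; the knockout libraries were both higher, within the error (log2 fold change 0.24, adjusted p = 0.726). Mrpl58, a peptidyl-tRNA hydrolase built into the large subunit, appears in the tables as Ict1 and so is not among the 77. It had 59.1 and 54.4 CPM in the knockout, against 56.7 and 58.3 CPM in wild type (log2 fold change -0.02, adjusted p = 0.975). When the genes were assigned by structure and not by letter, the median log2 fold change was -0.02 over 50 large subunit genes and -0.0039 over 26 small subunit genes.

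A split by origin cuts across the subunits. Of the 46 genes with a bacterial counterpart, 16 had positive and 30 negative values, with a median log2 fold change of -0.05. Of the 30 mitochondria-specific genes, 19 had positive and 11 negative values, with a median of 0.03. The same order held within the large subunit (9 positive and 21 negative, against 13 positive and 7 negative) and within the small subunit (7 positive and 9 negative, against 6 positive and 4 negative). Summed over the 46 genes with a bacterial counterpart the level was 2923 and 2940 CPM in the knockout, against 2972 and 3105 CPM in wild type. Over the 30 mitochondria-specific genes it was 1779 and 1780 CPM in the knockout, against 1750 and 1749 CPM in wild type. None of the genes was called, and the difference between the classes was not tested.

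Summed over its 48 genes, the large subunit reached 3027 and 3097 CPM in knockout libraries, against 3136 and 3153 CPM in wild-type libraries. The means were 3062 ± 49.6 CPM in the knockout and 3145 ± 12.3 CPM in wild type (SD, n = 2 each), a ratio of 0.974. The small subunit reached 1692 and 1641 CPM in the knockout, against 1601 and 1716 CPM in wild type, with means of 1666 ± 36.1 CPM and 1658 ± 81.3 CPM (SD, n = 2 each) and a ratio of 1.005. The TMM-normalised knockout sums thus lay a little below both wild-type sums for the large subunit, and between the wild-type sums for the small subunit. Without TMM scaling the genotypes overlapped for the large subunit. Its share of all counts was 0.3042% and 0.3129% in the knockout, against 0.3123% and 0.3119% in wild type. The small subunit's share was 0.17% and 0.1657% in the knockout, against 0.1594% and 0.1697% in wild type, also with overlap. The ratio of large to small subunit mRNA was 1.79 and 1.89 in the knockout, against 1.96 and 1.84 in wild type, with overlap. Together the 77 genes took 0.474% and 0.479% of all counts in the knockout, against 0.472% and 0.482% in wild type.

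**Figure D3:**
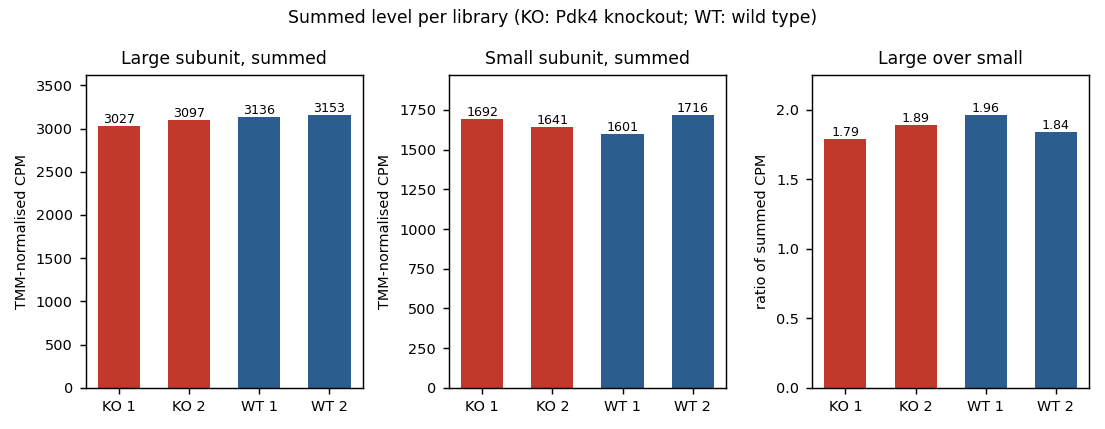
Summed TMM-normalised CPM of the large subunit genes (left) and small subunit genes (middle), and the ratio of the sums (right), with 1 bar per library and axes from 0. Red bars are the Pdk4 knockout libraries (KO) and blue bars wild type (WT). The large subunit sums are 3027 and 3097 in KO and 3136 and 3153 in WT, and the small subunit sums and the ratios overlap between genotypes. Without TMM scaling the large subunit's share of all counts overlaps as well.

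None of the partners of the mitochondrial ribosome was called either, with 0 genes in each of 5 further lists in edgeR, DESeq2 and limma-voom. At the 2.66% of all tested genes that were called, lists of 5 to 24 genes would hold few or no calls, so these counts say little about the lists. Subunits that carry other symbols were tested for 5 genes (Dap3, Chchd1, Ptcd3, Gadd45gip1 and Aurkaip1), of which 2 had positive and 3 negative values, with a median of -0.09 and none at an unadjusted p under 0.05. Chchd1, a small subunit protein, had 150 and 158 CPM in the knockout, against 167 and 168 CPM in wild type (adjusted p = 0.628). Of 24 assembly factors of the mitochondrial ribosome, 10 had positive and 14 negative values. The 24 had a median of -0.02 and none at an unadjusted p under 0.05. Grsf1, an RNA-binding protein of mitochondrial RNA granules, had the smallest p among them, with 41.6 and 39.8 CPM in the knockout, against 33.0 and 35.3 CPM in wild type (log2 fold change 0.25, adjusted p = 0.520).

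Of 15 translation factors, 10 had positive and 5 negative values, with a median of 0.06. Mtfmt, which formylates the initiator methionyl-tRNA, was the 1 with an unadjusted p under 0.05 in edgeR and in limma-voom, and DESeq2 had 0. It had 25.6 and 23.4 CPM in the knockout, against 14.7 and 20.2 CPM in wild type, without overlap (log2 fold change 0.49, adjusted p = 0.297). Of 9 genes for transcribing and copying mitochondrial DNA, 6 had positive and 3 negative values (median 0.16), and none had an unadjusted p under 0.05. The elongation factor Tefm had the smallest p of these, with 6.74 and 5.33 CPM in the knockout, against 4.32 and 2.22 CPM in wild type (adjusted p = 0.425).

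Among 8 tested regulators of mitochondrial biogenesis, 7 had positive and 1 a negative value, with a median of 0.15, and 2 had an unadjusted p under 0.05 (1 in DESeq2, 2 in limma-voom), against 13.5% of all tested genes. That count was 0 when either wild-type replicate 2 or knockout replicate 2 was left out. Nrf1, whose binding core was searched in the promoters, had 44.9 and 53.5 CPM in the knockout, against 37.8 and 37.1 CPM in wild type. The groups did not overlap (log2 fold change 0.39, adjusted p = 0.208). Pprc1, a coactivator of NRF1, had 27.4 and 26.1 CPM in the knockout, against 21.0 and 19.3 CPM in wild type, also without overlap (log2 fold change 0.41, adjusted p = 0.370). Ppargc1a, the coactivator best known for mitochondrial biogenesis in muscle and fat, was at 0 in all 4 libraries.

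Set beside 2 families with related work, chosen after values had been seen, the mitochondrial ribosome had the median nearest to that of all tested genes. Of 82 tested cytosolic ribosomal protein genes 0 were called, and 22 had an unadjusted p under 0.05 (4 when knockout replicate 1 was left out, 8 when wild-type replicate 2 was, 12 with library size only, and 32 when wild-type replicate 1 was left out). Over all tested genes 13.5% had an unadjusted p under 0.05. Of the 82, 73 had negative and 9 positive values, with a median log2 fold change of -0.09. For 52 (63.4%) both knockout libraries lay below both wild-type libraries, against 21.9% of all tested genes. Of 78 tested nuclear genes for subunits of the respiratory chain and ATP synthase 4 fell, against 1.21% of all tested genes. The 78 genes had 62 negative and 16 positive values, a median of -0.11 and 40 (51.3%) with both knockout libraries lower. The 4 were Ndufv3, Uqcrh, Atp5h and Ndufc1, and the count was 1 with library size only, 1 when wild-type replicate 2 was left out and 1 when either knockout library was left out. Up to 9 cytosolic ribosomal protein genes were called under an alternative, 9 without wild-type replicate 1. For the 77 mitochondrial ribosomal protein genes the corresponding counts were 41 negative and 36 positive values and 18 (23.4%) with both knockout libraries lower. Under all 13 alternatives the medians of these 2 families were negative (-0.13 to -0.07 for the cytosolic ribosome, -0.13 to -0.09 for the respiratory chain), whereas that of the mitochondrial ribosome lay between -0.02 and 0.01. Genes of a family share libraries and can share changes, and the difference between the families was not tested.

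**Figure D4:**
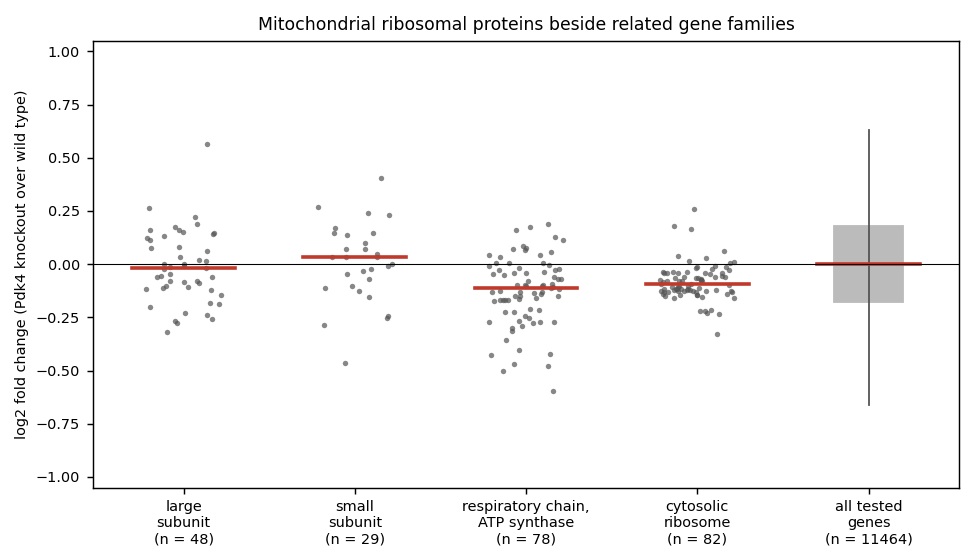
Log2 fold change (Pdk4 knockout over wild type) of each tested gene as a point, in the 2 mitochondrial ribosomal subunits, the respiratory chain with ATP synthase, and the cytosolic ribosome, with medians as red bars. For all 11464 tested genes the box spans the middle quartiles and the line the 5th to 95th percentile. Medians are -0.02 and 0.03 for the mitochondrial subunits, -0.11 for the respiratory chain and -0.09 for the cytosolic ribosome.

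The 77 genes are spread over 17 chromosomes, with 10 on chromosome 11, 8 on chromosome 17 and 7 on chromosome 6. In the annotation of the same build (GRCm38), 18 of the 77 (23.4%) have a divergent protein-coding neighbour, against 1179 of 10438 other tested protein-coding genes (11.3%). Such a neighbour runs the opposite way and starts at most 1000 bp upstream. Pairs that overlap at their starts, such as Mrpl46 and Mrps11, were left out of both shares. Mrps5 is one of the 18, 128 bp from Zfp661, and Mrpl51 another, 100 bp from Ncapd2. Since only transcript ends were read, the sharing of 3' ends bears more on the counts. In 11 of the 77 genes an exon of another gene falls in the last 500 bp, and in 7 of these (Mrpl19, Mrpl24, Mrpl49, Mrpl53, Mrps7, Mrps25 and Mrps34) the neighbour is protein-coding. In the others (Mrpl10, Mrpl12, Mrpl51 and Mrps18b) the neighbour is noncoding. The use of strand in counting is not given in the sources used here, so the values of all these genes may include reads of the neighbour. At Mrpl53 (Gm42688), Mrps34 (Nme3) and Mrpl51 (Mir3098) a neighbour lies on the same strand, where counting by strand would not separate the reads. The 500 bp were counted from the annotated gene end, which can lie away from the RefSeq end (for Mrpl33 at 31664384, against 31622644 in RefSeq). The remaining genes are therefore not shown to be free of overlap.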

How the data were processed

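Each of 4 libraries was prepared with Lexogen's QuantSeq kit, which reads transcript 3' ends, from 500 ng of RNA per the labels' protocols. The authors deposited raw counts per gene symbol, 1 table per library (23282 rows, 0 columns unmatched). The mm10 build, edgeR and Bowtie2 appear in the submitters' processing notes without roles or versions. Not given in the sources used here: counting tool, annotation, strand, multi-mapping; for genes that overlap or have pseudogenes (5 pseudogenes are named after members) reads may be shared.

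Counts were tested with edgeR 4.0.16 (R 4.3.3): filterByExpr, TMM scaling, quasi-likelihood F test, two-sided, genotype only, Benjamini-Hochberg adjustment over all 11464 tested genes, threshold 0.05. CPM values use TMM library sizes. Intervals (95%) come from the fit, in which the spread of each gene is drawn towards that of other tested genes. DESeq2 1.42.0, limma 3.58.1 (voom), other scalings, filters (10 CPM in 2 libraries, or none), leaving out Rn45s or each library, and a replicate block were the alternatives. The procedure was tested on simulated data. The labels give no pairing: same-numbered libraries deviated with a correlation of 0.0111 across tested genes.

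The members and lists were chosen with earlier results of these data known. Genes named were Pdk4, any called member, per subunit the 6 smallest p-values, the 5 highest and 2 lowest levels, paralogs and misnamed members, and up to 3 genes per further list; others named were chosen after their values were seen. Rn45s took 11.6% to 12.3% of counts.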

Additional observations from a re-analysis of the deposited data

How the results depend on the processing

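Under all 13 alternatives 0 large subunit and 0 small subunit genes were called, and 2 (without wild-type replicate 2) to 9 (without wild-type replicate 1) of the 77 had an unadjusted p under 0.05. Over all genes 305 were called, 170 to 293 when 1 library was left out (184 without wild-type replicate 2, 170 without knockout replicate 1). The small subunit median log2 fold change of 0.0326 ranged from -0.0366 (without wild-type replicate 1) to 0.0507 when 1 library was left out, so its sign rests on single libraries, as does that of the large subunit (-0.0398 to 0.0177, against -0.0195). The large subunit median was also 0.00234 with library size only, which moved the median of all genes to 0.0225. The libraries share only a number, and the fit with a replicate block called 260 genes, none of the 77. Members named by rule whose values changed sign under at least 1 alternative were Mrpl12, Mrpl24, Mrps6, Mrps12, Mrps18a, Mrps18b, Mrps18c, Mrps23, Mrps25 and Mrps30. Members outside the rule are not listed here, and with library size only 71 of all 77 kept their sign. With the stricter filter Mrpl21 was not tested. Leaving out 1 library leaves a lone sample in its genotype, which is assumed to vary like the other group. Intervals cover only counting error and the spread between the 2 libraries of a genotype. The fit draws each gene's spread towards that of other tested genes, so an interval rests on more than that gene's own values.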
